A study of Mus musculus with 18 samples.

Results

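These results describe 1742 regions, 4.11% of the 42403 regions bound by GATA6 in the deposited table, that were occupied by GATA6 for a limited time, by neither SOX17 nor pluripotency transcription factors (PTFs), and that lay in facultative heterochromatin of embryonic stem (ES) cells. They were selected on 4 deposited classes, namely Transient GATA6 binding, no PTF, no SOX17 and the facultative heterochromatin state. GATA6 signal over time, SOX17 and PTF peaks and histone signal therefore chose the regions, and these measures are not presented as findings. The study used KH2 ES cells of a C57BL/6 x 129/Sv background with a doxycycline (Dox)-inducible Gata6 cassette, grown with LIF on inactivated mouse fibroblasts, where Dox at 1 ug/mL drives the cells to the fate of primitive endoderm (PrE). The series holds 18 MNase-seq libraries, 3 replicates for each of 6 groups. These are untreated cells (d0) and cells treated with Dox for 8, 16, 24, 48 or 96 h, and all of them carry the cassette. The study worked with isolated clones of this line, so the Dox-treated cells share an origin. It also identified GATA6 regions in XEN cells, a separate line derived from early embryos. Not all deposited regions therefore need reflect forced GATA6 expression. Among the 16285 Transient regions, 2243 were in facultative heterochromatin, and 1742 of these had neither a SOX17 nor a PTF peak. MNase signal and the signal of histone marks were not analysed here, so the chromatin label was not checked against the marks, and the columns used give no count or depth for any single library behind the classes.

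GATA6 is a zinc finger factor that recognises DNA with the core GATA and directs the PrE, the extraembryonic lineage that lines the blastocyst cavity. As a pioneer factor it can bind its motif on nucleosomal DNA. OCT4 and SOX2 sustain pluripotency and bind side by side on a composite OCT4:SOX2 motif, ESRRB is an orphan nuclear receptor of the same network, and SOX17 is an endoderm factor. Facultative heterochromatin is the form of silent chromatin laid down by Polycomb complexes, typically over developmental genes, whereas constitutive heterochromatin covers much of the repeated part of the genome.

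The sequences below, from the GRCm38 (mm10) assembly, show the motifs on which the results turn. The first lines give the best GATA6 motif, in capitals, with 24 bases to each side, in 4 of the 5 regions with the highest GATA6 motif score, read on the strand of the motif. All 4 contain AGATAAG. Those near Whrn and Gm973 are centred at -310 and -201 bp from the summit. They lie outside the windows of 100 bp to each side of the summit used below.
Upstream of Fam107a, chr14:8339049-8339109, minus strand: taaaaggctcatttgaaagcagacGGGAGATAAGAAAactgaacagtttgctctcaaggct
Upstream of Whrn, chr4:63500401-63500461, plus strand: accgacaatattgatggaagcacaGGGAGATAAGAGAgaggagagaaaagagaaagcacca
Upstream of Agps, chr2:75825802-75825862, plus strand: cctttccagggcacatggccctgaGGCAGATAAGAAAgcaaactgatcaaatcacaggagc
Upstream of Gm973, chr1:59570787-59570847, plus strand: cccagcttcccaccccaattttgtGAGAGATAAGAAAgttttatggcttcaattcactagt

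The next lines show the GATA6 summit with 60 bases to each side, plus strand, of members near genes for developmental, pluripotency and signalling regulators. Capitals mark GATA6 and OCT4:SOX2 motifs on either strand, and adjoining capitals are overlapping or abutting motifs.
Lmo2, chr2:103957853-103957973: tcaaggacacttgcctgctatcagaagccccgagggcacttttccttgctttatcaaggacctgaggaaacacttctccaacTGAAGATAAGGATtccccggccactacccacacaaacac
Esrrb, chr12:86364682-86364802: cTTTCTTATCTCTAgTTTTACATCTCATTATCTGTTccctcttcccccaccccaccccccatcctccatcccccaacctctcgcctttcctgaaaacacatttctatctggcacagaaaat
Wnt7b, chr15:85588748-85588868: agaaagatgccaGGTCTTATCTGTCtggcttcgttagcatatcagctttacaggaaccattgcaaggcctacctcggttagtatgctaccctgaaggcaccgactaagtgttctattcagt

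A further pair of members is shown for contrast, on the plus strand. The region in an intron of Dlgap2 has the highest OCT4:SOX2 score among the summit windows and was chosen after the values were seen. The region in an intron of Ccser2 has no GATA6 motif and no OCT4:SOX2 motif in its summit window, so no letters are in capitals.
Dlgap2, chr8:14757625-14757745: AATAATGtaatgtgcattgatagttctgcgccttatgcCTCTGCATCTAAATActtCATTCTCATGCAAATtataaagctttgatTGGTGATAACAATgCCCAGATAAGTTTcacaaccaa
Ccser2, chr14:36904802-36904922: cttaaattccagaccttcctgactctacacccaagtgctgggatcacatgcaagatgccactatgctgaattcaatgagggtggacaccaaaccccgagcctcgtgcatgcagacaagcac

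To ask what sets the 1742 regions apart in sequence and in the state of untreated cells, they were compared with 3 groups that differ from them in 1 of the 4 classes. These were 634 Early and 2493 Late regions without SOX17 or PTFs in facultative heterochromatin, and 955 Transient regions without SOX17 or PTFs in constitutive heterochromatin. Motifs were counted in summit windows, which reach 100 bp to each side of the base of highest GATA6 signal, and in control windows of the same length 3 kb away on each side. A motif score is the log-odds match of the motif to its matrix, so a higher score means a closer match. A difference was called where its interval, widened to the 99.875% level for the 40 comparisons made, left out 0, and 20 of the 40 were called. Shares carry 95% Wilson intervals. All intervals cover counting error among regions only, and neighbouring regions are not independent, so it is also given on how many of 20 chromosomes (Y left out) a difference had its pooled sign.

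Members were rich in strong GATA6 motifs at the summit and carried OCT4:SOX2 motifs more often than Early or Late regions of the same chromatin state, although no OCT4 or SOX2 peak was assigned to them. A GATA6 motif was present in 92.0% of member summit windows (90.7 to 93.2) and 34.2% of their control windows, and an OCT4:SOX2 motif in 49.4% (47.1 to 51.8) and 36.9%. The Transient regions of constitutive heterochromatin had a similar share of OCT4:SOX2 motifs, 48.9%, while Early and Late regions had 36.6% and 34.7%. Members were closed at d0 in 95.6% of cases, against 97.8% of Early and 98.7% of Late regions of the same chromatin state and 77.3% of the Transient regions in constitutive heterochromatin.

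**Figure D1:**
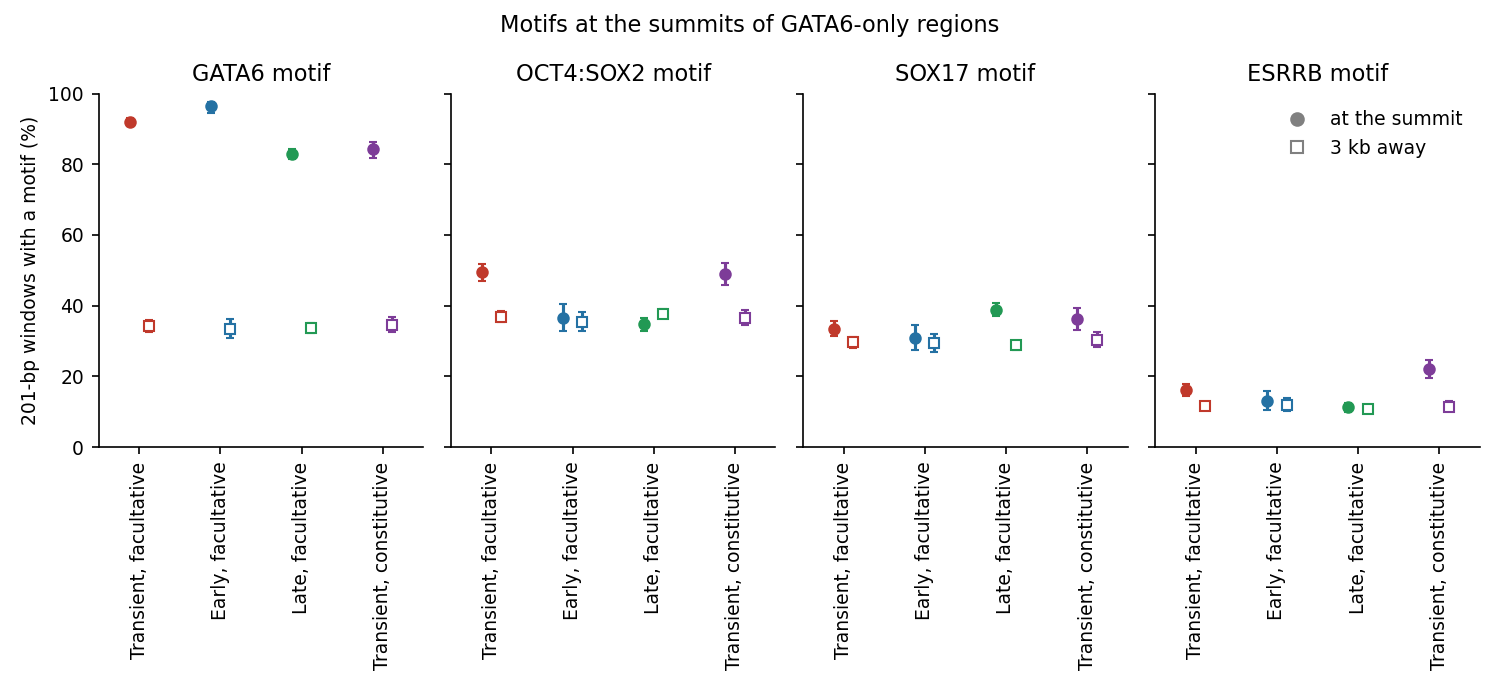
Share of windows with a motif (y axis, percent) for the 4 motifs and 4 groups of regions, with filled circles at the summit, open squares in control windows 3 kb away, and bars for 95% Wilson intervals. The OCT4:SOX2 motif stood above its control level in both Transient groups (49.4% against 36.9% in the facultative and 48.9% against 36.6% in the constitutive group).

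The GATA6 motif came first. Its share at member summits was 9.03 percentage points above that of Late regions (widened interval 5.74 to 12.2, same direction on 20 of 20 chromosomes) and 7.83 points above that of Transient regions in constitutive heterochromatin (3.67 to 12.4, 18 of 20). It was 4.35 points below the 96.4% of Early regions (-7.28 to -0.617, 16 of 20), a call that was lost over windows reaching 200 bp to each side and over whole regions. Control windows held a GATA6 motif in 33.4% to 34.5% of cases in all 4 groups.

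Over the whole region, 1678 of 1742 members had a GATA6 motif. The mean best score was 11.44 (SD 2.32, n = 1678), with a median of 11.6 and a range from 6.25 to 15.2. It was 1.29 above the mean of 10.15 in Late regions (1.05 to 1.53) and 0.570 above the mean of 10.87 in Transient regions of constitutive heterochromatin (0.248 to 0.891). The latter call was lost with the mean score of all motifs in place of the best. Against Early regions, whose mean was 11.65, the difference of -0.208 was not called (-0.539 to 0.122). Scores of 13 or more, a level chosen after the values were seen, were found in 32.0% of members, 31.7% of Early, 26.5% of constitutive and 16.0% of Late regions with a motif.

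**Figure D2:**
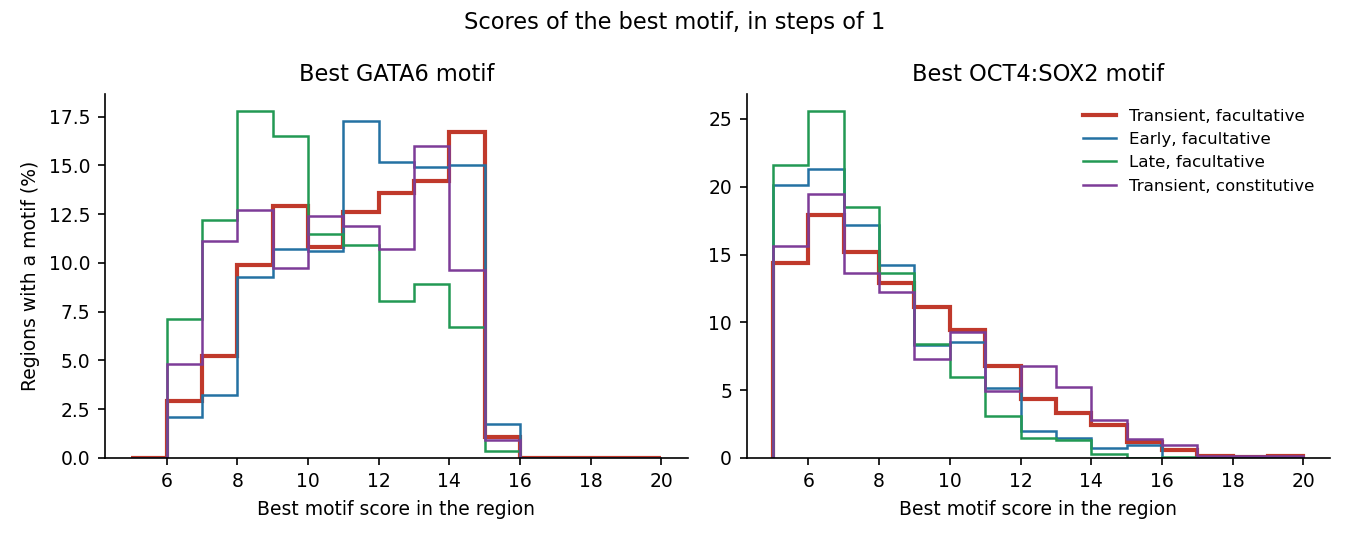
Distribution of the best GATA6 (left) and OCT4:SOX2 (right) motif score per region, in steps of 1 (x axis), as the percent of regions of each group that have the motif (y axis). Late regions peak at GATA6 scores of 8 to 9 (17.8%), whereas the members peak at 14 to 15 (16.7%).

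The core of the best motif was AGATAAG in 815 of 1603 member windows with a GATA6 motif (50.8%), TGATAAG in 239 (14.9%), AGATAAC in 161 (10.0%) and AGATAAA in 140 (8.73%). AGATAAG made up 52.9% of best cores in Early regions, 43.3% in the constitutive group and 30.4% in Late regions. The letters AGATAA, searched on both strands, were found in 73.0% of member windows, 79.8% of Early, 57.6% of Late and 64.6% of windows of the constitutive group, and in 54.3% of the windows of all 42403 regions. The letters GATA were found in 98.5% of member windows, in 97% to 99.7% of windows of the comparison groups and in 92.9% of all. Members had 2.48 GATA6 motifs per region on average (SD 1.46). Of the 1742 members, 64 had none (3.67%), 375 had 1, 1238 had 2 to 5 and 65 had 6 or more.

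Where a window held several GATA6 motifs, as in 937 member windows, a spacing of 5 bp between the starts of adjacent motifs on the same strand was the most frequent arrangement, with 105 of 1342 adjacent pairs (7.82%). The next most frequent arrangements had 21 pairs each. The same spacing led in the comparison groups, with 7.65% of adjacent pairs in Late regions, 11.9% in Early regions and 11.1% in the constitutive group. Motifs with this spacing overlap each other.

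GATA6 motifs were centred on the summit. In 1069 of 1678 members with a motif (63.7%, 61.4 to 66) the best one was at most 50 bp away, where even placement along each region would give 25.8%. The figure was 68.2% in Early, 58.8% in Late and 60.2% in Transient regions of constitutive heterochromatin. The density of GATA6 motifs in members rose from 6.83 per 100 regions and 20-bp bin in the bin that starts 120 bp before the summit to 27.7 in the bin that starts at the summit.

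**Figure D3:**
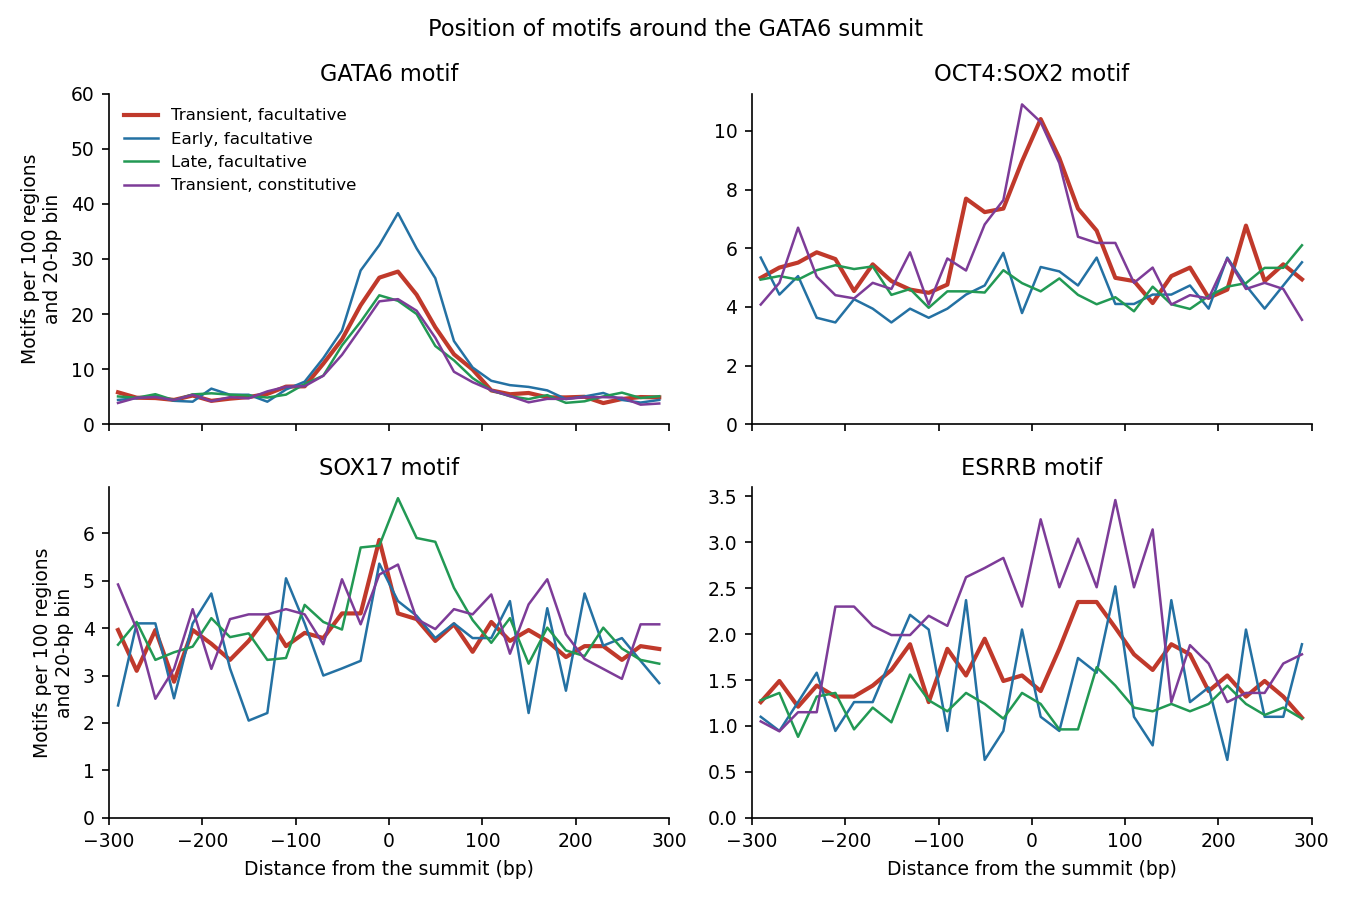
Number of motifs per 100 regions and 20-bp bin (y axis) by distance from the GATA6 summit in bp (x axis) for the 4 motifs and 4 groups of regions. In the bin that starts at the summit, OCT4:SOX2 motifs reached 10.4 per 100 regions in members and 10.3 in Transient regions of constitutive heterochromatin, against 5.36 in Early and 4.53 in Late regions.

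OCT4:SOX2 motifs at member summits exceeded those of Early regions by 12.8 percentage points (5.41 to 19.9, 17 of 20 chromosomes) and those of Late regions by 14.8 points (9.80 to 19.7, 20 of 20). The difference from Transient regions of constitutive heterochromatin was 0.525 points and was not called (-5.95 to 6.98). Over whole regions the difference from Early regions fell to 6.08 points and was no longer called. Of all 42403 regions, 41.8% had the motif in the summit window, against 49.4% of members. Over the whole region it was present in 71.5% of all regions and 70.4% of members. The GATA6 and OCT4:SOX2 motifs can overlap, and a motif free of any GATA6 motif was present in 42.4% of member windows, 28.9% of Early, 28.4% of Late and 44.2% of windows of the constitutive group.

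The OCT4:SOX2 motifs of members also scored higher than those of Early and Late regions. They did not score higher than those of all regions, whose mean best score was 8.79 (n = 30302). The mean best score over regions with a motif was 8.70 (SD 2.63, n = 1227) in members, 0.785 above Early (0.356 to 1.21, 20 of 20 chromosomes) and 1.11 above Late regions (0.812 to 1.40, 19 of 20). Against the constitutive group, whose mean was 8.83, the difference of -0.131 was not called (-0.570 to 0.308). Scores of at least 10 were found in 14.2% of member windows (12.7 to 16.0), 5.84% of Early, 3.37% of Late and 16.1% of windows of the constitutive group. The share was 11% over the windows of all regions. The highest score in a member window, 19.88, was that of the Dlgap2 region shown above, where the CATTCTCATGCAAAT motif lay near GATA6 motifs. That region was closed at d0 and had 5 GATA6 motifs, the best with a score of 14.39. This best motif was centred 189 bp from the summit, outside the summit window, and is not among those shown.

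By combination of motifs, 465 member windows (26.7%) had a GATA6 motif and none of the other 3 kinds, 423 (24.3%) had GATA6 and OCT4:SOX2 motifs, 231 (13.3%) had GATA6, SOX17 and OCT4:SOX2 motifs, and 222 (12.7%) had GATA6 and SOX17 motifs. Windows with GATA6 and OCT4:SOX2 motifs alone made up 22.4% in Early regions, 21.6% in the constitutive group and 15.2% in Late regions. In members the best GATA6 score was 11.06 in the 782 windows with an OCT4:SOX2 motif and 11.40 in the 821 without. The difference of -0.339 (95% interval -0.572 to -0.106) was looked at after the values were seen and is a description. Only 36 member windows (2.07%) had none of the 4 motifs.

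ESRRB motifs were present in 16.1% of member windows (14.4 to 17.9) and 11.7% of control windows. The member share was 4.88 points above Late regions (1.45 to 8.46, 14 of 20 chromosomes), which was lost in windows reaching 50 bp to each side. Against the constitutive group the difference was -5.92 points (-11.2 to -0.884, 19 of 20), which was lost among regions closed at d0 and among regions with no other summit within 10 kb. The difference of 3.14 points from Early regions was not called (-2.43 to 7.94). ESRRB motifs of members scored 9.35 on average (SD 3.74, n = 531), 1.42 above Late regions (0.772 to 2.06).

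SOX17 motifs showed the least contrast. They were present in 33.5% of member windows (31.3 to 35.7) and 29.7% of control windows. The share was lower than in Late regions, with a difference of -5.44 points (-10.2 to -0.587, 18 of 20 chromosomes), but this call was lost under 4 alternatives and the sign turned over whole regions, where the difference was 1.40. No other SOX17 difference, in share or in score, was called. The mean best SOX17 score in members was 9.46 (SD 1.64, n = 981), and differed from the comparison groups by between -0.115 and 0.0889.

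**Figure D4:**
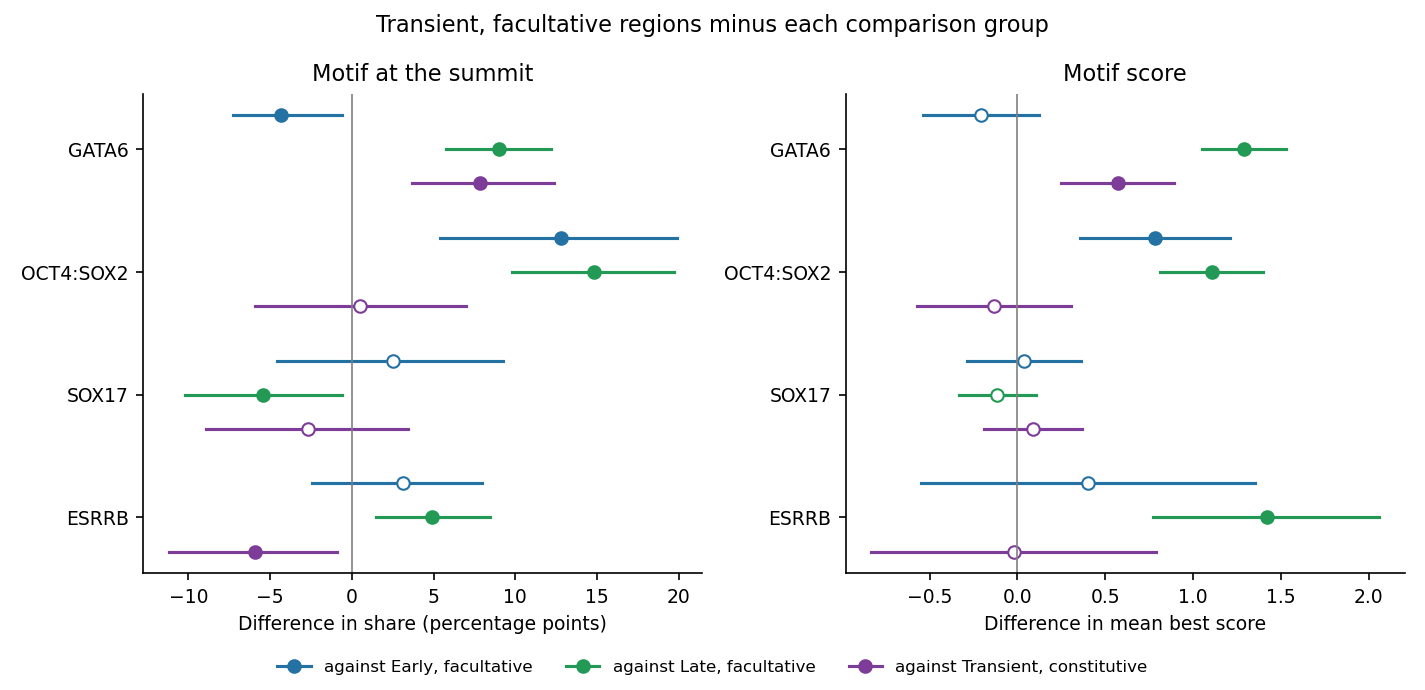
Members minus each comparison group, in the share of summit windows with a motif (left, percentage points) and in the mean best motif score (right), with intervals widened for 40 comparisons and filled circles where the interval leaves out 0. OCT4:SOX2 differences from Early (12.8 points) and Late regions (14.8 points) were called, and that from the Transient constitutive group (0.525 points) was not.

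A sequence shared by several members contributed to the OCT4:SOX2 motifs. In 19 of the 782 member windows with both motifs, the OCT4:SOX2 motif was centred 29 bp before the GATA6 motif on the opposite strand, as many as for the other leading arrangement, 7 bp on the same strand, in which the motifs overlap. The 29-bp arrangement was found in 16 of 376 such windows of the constitutive group, 1 of 734 of the Late group and 0 of 226 of the Early group. In 14 of the 19 members it was part of a near-identical sequence, shown here for 4 of them on the strand of the GATA6 motif. Capitals mark the OCT4:SOX2 motif and then the GATA6 motif.
Near Slc30a3, chr5:31098973-31099049, plus strand: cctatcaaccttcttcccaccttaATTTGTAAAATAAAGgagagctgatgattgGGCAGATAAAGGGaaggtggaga
Near Oxtr, chr6:112576146-112576222, plus strand: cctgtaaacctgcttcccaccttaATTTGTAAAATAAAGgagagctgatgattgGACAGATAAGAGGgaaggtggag
Near Hey2, chr10:30866518-30866594, minus strand: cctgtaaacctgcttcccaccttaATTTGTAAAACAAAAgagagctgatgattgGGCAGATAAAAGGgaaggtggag
Near Ncam2, chr16:81089990-81090066, plus strand: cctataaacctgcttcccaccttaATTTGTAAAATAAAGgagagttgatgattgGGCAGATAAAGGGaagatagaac

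The 20-mer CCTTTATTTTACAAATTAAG, the most frequent over all 42403 summit windows apart from simple repeats, marks this sequence and was found exactly in 198 windows. With at most 3 mismatches on either strand it was found in 20 members (1.15%) on 10 chromosomes and in 298 regions in all. Of these, 280 were Transient (1.72% of 16285), 15 Early and 3 Late, and 3.56% of the 5309 Transient regions bound by PTFs from d0 held it. The windows of the 20 members were soft-masked as repeats in the assembly over 86.4% of their bases on average, against 17.0% for all members. The sequence was searched for after the values were seen, and its windows were left out as an alternative, under which every share and score comparison kept its direction and its side of the threshold.

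In untreated cells, 1665 of 1742 members were closed, 77 moderate and 0 accessible (Wilson interval 0 to 0.22%). The closed share of 95.6% was 18.3 points above that of the Transient constitutive group (13.8 to 23.1, 20 of 20 chromosomes) and lower than that of Late regions, with a difference of -3.14 points (-5.09 to -1.49, 19 of 20). Against Early regions, 97.8% of which were closed, the difference of -2.21 points was not called (-4.47 to 0.885). Over all regions 61.3% were closed. With moderate counted as closed, neither difference was called, since nearly all regions of these groups fell in the 2 classes. This class rests on ATAC-seq at d0, and the histone state that chose the regions comes from the same kind of cell.

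Within members, GATA6 motifs were weaker where chromatin was not closed. The mean best GATA6 score was 10.40 in 73 moderate and 11.49 in 1605 closed members with a motif, a difference of -1.09 (-2.01 to -0.179, 16 of 19 chromosomes). A GATA6 motif was present in 84.4% of moderate windows (74.7 to 90.9) and 92.4% of closed ones (91.0 to 93.6), and an OCT4:SOX2 motif in 49.4% of each. The shared 20-mer was found in 4 of the 77 moderate and 16 of the 1665 closed members.

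The response to Oct4 knockdown is a class of the study, from GATA6 ChIP-seq after 48 h of Dox with siRNAs against Oct4 or control siRNAs. GATA6 binding decreased at 96 members (5.51%, 4.53 to 6.68), near the 6.25% of all regions, and increased at 0 members, against 8.57% of all regions. The Wilson interval for this count of 0 reaches 0.22%. The class came from DESeq2 run by the authors, and the columns used hold no p-value. Increased regions made up 6.10% of Late and 1.58% of Early regions and 0 of 955 regions of the constitutive group. All 96 decreased members were closed at d0, as were 95.3% of the 1646 members with no change. Windows of decreased members held an OCT4:SOX2 motif in 33.3% of cases (24.7 to 43.2), against 50.4% (48.0 to 52.8) of the 1646. This comparison was chosen after the values were seen and not tested. A GATA6 motif was present in 89.6% and 92.2%, respectively. The median width was 468.5 bp in decreased and 396 bp in unchanged members.

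Like the comparison groups, members were narrower than all regions and lay farther from gene starts. Their median width was 399 bp, with a range from 171 to 2010 bp, against 428 bp in Early, 328 bp in Late, 359 bp in the constitutive group and 524 bp over all regions. The median distance to the start of a protein-coding transcript was 28112.5 bp in members, 24239 bp in Early, 21555 bp in Late, 29520 bp in the constitutive group and 16334 bp over all regions. Summits lay in introns in 48.6% of members, between genes in 47.0%, in exons in 4.36% and within 1 kb of a transcript start in 4.94% (4.01 to 6.06), against 12.4% of all regions. Promoter summits did not differ detectably from the 3 comparison groups, with differences between -1.32 and 0.120 points and widened intervals from -5.13 to 2.77. Intronic summits were rarer than in Late regions, with a difference of -7.58 points (-12.6 to -2.54), a call lost among regions with no other summit within 10 kb, and 6.74 points more frequent than in the Transient constitutive group (0.260 to 13.1).

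Base composition differed little. The GC content of member windows was 45.4% on average (SD 5.0), 1.43 points above Late regions (0.941 to 1.93), and the observed to expected CpG ratio was 0.188 (SD 0.160), which differed from Late regions by -0.0219 (-0.0381 to -0.00562). Against Early regions and the constitutive group neither was called. CpG ratios were thus low in members, as in all 3 comparison groups (0.173 to 0.210).

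Members were spread over the genome. Each autosome held 51 to 144 of them, 3.06% to 5.10% of its GATA6 regions, while chromosome X held 16 of 1238 (1.29%). Another GATA6 summit lay within 10 kb of 36.1% of members and 53.6% of all regions. The nearest other region was Transient for 49.1% of members, Late for 26.2% and Early for 24.7%, where over all regions 37.7% of nearest neighbours were Transient. In the constitutive group 46.3% of nearest neighbours were Transient, and in Late regions 48.9% were Late. For 129 members (7.41%) it was another member. The densest stretch, on chromosome 15 with summits from 80583024 to 80661434, held 5 members among 9 GATA6 regions. Of the 5 members, 3 lay in introns with Grap2 as the nearest protein-coding gene, and 2 lay upstream of Fam83f. All 5 were closed at d0. Best GATA6 scores there were 11.79, 11.19, 9.38 and 13.94, and the remaining region had no GATA6 motif.

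Some genes for developmental regulators had members nearby. Of 127 developmental transcription factor genes, 27 (21.3%) had a member summit within 100 kb of a transcript start, as did 18 of 86 signalling genes (20.9%), 9 of 38 PrE genes (23.7%), 6 of 33 pluripotency genes (18.2%) and 9 of 39 Hox genes (23.1%). Over all 21911 protein-coding genes the share was 15.1%. A GATA6 region of any class lay within that distance of 122 of the 127, 82 of the 86, 38 of the 38, 33 of the 33 and 39 of the 39 genes. For all protein-coding genes that share was 88.3%. Late regions of the same chromatin state, a larger group, lay within 100 kb of 22, 17, 15, 5 and 9 genes of these lists, in the same order. Genes of every list thus had regions of either group nearby. The share of all protein-coding genes near such Late regions was not computed, so the counts do not rank members against them. These counts are descriptions with no test, since listed genes differ from others in the number of transcript starts and in their surroundings. The 9 Hox genes, Hoxc4 to Hoxc13, lie in a single gene cluster. Among PrE genes, members lay 45450 bp from Sox17, 23166 bp from Sox7, an endoderm factor of the same family, and 64901 bp from Pdgfra, the receptor that marks PrE cells. Each of these genes had a GATA6 region of another class closer by, at 24, 1176 and 322 bp.

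A member lay within 10 kb of 13 listed genes. The share of all protein-coding genes at this distance was not computed, so the count shows no excess over other genes. The closest was Lmo2, which encodes a LIM-only partner of GATA factors in blood development. The member at chr2:103957589-103958729 had its summit 73 bp upstream of a transcript start, 6 GATA6 motifs and a best score of 12.57 at 28 bp from the summit, and its GATA6 binding decreased after Oct4 knockdown. It was also the widest of the named members near listed genes, at 1140 bp.

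Homeobox genes of the early embryo were close to members as well. The member near Isl1, a LIM homeobox gene of heart and motor neuron precursors, had its summit 1212 bp upstream, 4 GATA6 motifs and a best score of 14.20. The member between the starts of Hoxc13 and Hoxc12, 7286 and 8368 bp from them, had its summit in an annotated exon. It had 1 GATA6 motif with a score of 13.91. The member in Meis1, which encodes a Hox cofactor, was 8934 bp downstream of a start, moderate at d0, and had a best GATA6 score of 9.86. These 3 members were unchanged in GATA6 binding after Oct4 knockdown. A GATA6 region that is not a member lay closer to Meis1 (89 bp), Hoxc13 (5489 bp) and Hoxc12 (7642 bp), but not to Isl1.

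The remaining named members lay near genes of signalling, neural crest and pluripotency. The member in an intron of Esrrb, 3625 bp downstream of a transcript start at chr12:86364380-86365319, had a best GATA6 score of 14.94, the highest among the members near listed genes, and an OCT4:SOX2 score of 5.55. The member at Sox8, a neural crest gene, 3187 bp downstream, had a GATA6 motif of 13.54 centred 7 bp from the summit and an OCT4:SOX2 motif of 11.09. Near Nr2f1, an orphan nuclear receptor gene of neural development, 9383 bp downstream, the OCT4:SOX2 score was 12.91 and the best GATA6 score 10.84. The member 4400 bp upstream of Twist1, a mesenchymal factor gene, had a best GATA6 score of 9.23. Among signalling ligands, the member 6335 bp upstream of Wnt7b was moderate at d0 with a GATA6 score of 14.00, and that 9581 bp from Ihh had a score of 9.29. A GATA6 region that is not a member lay closer to Esrrb (943 bp), Wnt7b (1549 bp) and Ihh (1602 bp), but not to Sox8, Nr2f1 or Twist1.

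The highest GATA6 scores of all members were 15.21, 15.21, 15.20, 15.17 and 15.14. Genes named for these regions are the nearest protein-coding ones. The regions lay 20960 bp from Fam107a, 301839 bp from Csnk1g3, 4750 bp from Whrn, 6378 bp from Agps and 11378 bp from Gm973. All 5 were closed at d0, unchanged after Oct4 knockdown and outside exons, and in 3 of them the best motif was more than 200 bp from the summit. The most GATA6 motifs in a member, 11, were found in 3 regions. That at chr8:45111573-45112514, 26843 bp from the nearest protein-coding gene, Mtnr1a, decreased after Oct4 knockdown and had an ESRRB motif of 16.37 at the summit. That at chr5:25076924-25078225, in an intron of Prkag2, had no GATA6 motif above 8.31. The third, at chr4:81960123-81961053, was soft-masked over 61.7% of its summit window.

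The 64 members without a GATA6 motif were mostly closed as well, with 60 closed at d0, and 57 of them held the letters GATA in the summit window. An OCT4:SOX2 motif was present in 39 of the 64 and a SOX17 motif in 23, and 4 decreased after Oct4 knockdown. Over all members these shares were 49.4%, 33.5% and 5.51%. The 3 nearest to a transcript start lay 1209 bp from n-R5s61, 1258 bp from Errfi1 and 1456 bp from Ccser2. Of these, the Ccser2 region held none of the 4 motifs in its summit window and was classed as decreased, whereas the Errfi1 region, upstream of a gene for an inhibitor of EGF receptor signalling, had a SOX17 motif of 10.57 and an OCT4:SOX2 motif of 5.68.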

How the data were processed

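The authors aligned reads with bowtie2 to mm10, called GATA6 peaks with MACS2 and deposited a table of 42403 regions and 105 columns, with positions in bp, classes and numbers of motif hits. According to the methods, GATA6 classes came from k-means clustering, SOX17 and PTF classes from called peaks, the histone state from public ES cell data and accessibility from ATAC-seq at d0. Motif scores were deposited as the log-odds score that FIMO gave with JASPAR matrices, not normalised. Left unused were 59 signal columns whose names fit none of the libraries and 12 columns of binned motif values. The columns used hold no counts, and the study states depth for its ChIP-seq libraries only as an average, so the depth behind a single value was not analysed here.

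The 4 matrices were recovered from deposited best hits by least squares (largest residual 5.20e-05), and rescanning gave the deposited presence and best score in 100% of regions (tolerance 0.001). Windows and control windows were read from GRCm38, summits were annotated with GENCODE M21, and soft-masking is that of the RefSeq assembly. Control windows overlapping a GATA6 region were left out. Regions were the units, and no library entered a test. Shares were compared by Newcombe intervals and means by normal intervals, widened by Bonferroni over 40 comparisons, and the functions were tested on simulated data. Alternatives were other windows, a score of at least 10, 10 bins of region width, closed regions alone, no promoter summits (within 1 kb), no summit within 10 kb of another and no chromosome X. Those without the shared sequence, or with OCT4:SOX2 motifs free of GATA6 motifs, were chosen after seeing the data. The members, gene lists and comparisons were chosen with earlier results of these data known. Named regions were the 5 with the highest GATA6 score, the 3 with the most GATA6 motifs, the 3 without a GATA6 motif nearest a transcript start, the nearest member within 10 kb of each listed gene and the densest 100 kb. Some of the regions named by this rule are not reported here. Computations used scipy 1.17.1, numpy 2.4.6, pandas 2.3.3, pysam 0.24.0 and matplotlib 3.10.9 under Python 3.11.15.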

Additional observations from a re-analysis of the deposited data

How the results depend on the processing

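Regions and not libraries were compared, and the columns used carry no value of an MNase library. No paired analysis was possible because no column used belongs to a library with a replicate number, and no replicate could be left out for the same reason. Of 283 values recomputed under alternatives, 251 kept their direction and their side of the threshold (or stayed close to the reported value), 14 lost a call, 13 changed sign and 5 moved. Of the 13 that changed sign, only the SOX17 share against Late regions was called as reported, none was called under the alternative, and the cause of these changes was not tested.

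Over whole regions, the GATA6 share against Early regions came to -2.25 points and the OCT4:SOX2 share against Early to 6.08 points, neither called, and SOX17 differences turned to -0.941 points against Early and 1.40 points against Late. Windows reaching 200 bp to each side gave -2.57 points for GATA6 against Early and -3.56 points for SOX17 against Late. Windows reaching 50 bp gave 1.85 points for ESRRB against Late and -0.881 points for OCT4:SOX2 against the constitutive group. With scores of at least 10, SOX17 against Late was -2.88 points and OCT4:SOX2 against the constitutive group -1.89 points, and the latter was -1.77 points with motifs free of GATA6 motifs.

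Without promoter summits, SOX17 against Late was -4.99 points and the ESRRB score against the constitutive group 0.0468. Without regions within 10 kb of another summit, SOX17 was -5.73 points against Late and -0.968 points against Early, ESRRB against the constitutive group -4.42 points, introns against Late -6.50 points, promoters against Early 0.468 points and GC content against the constitutive group -0.184 points. Among closed regions, ESRRB against the constitutive group was -2.29 points in share and 0.0374 in score. With the mean score of all motifs, GATA6 was 0.200 above the constitutive group and 0.0901 above Early, and with the best score of the window SOX17 against Early was -0.0115. Within 10 bins of width, promoters against the constitutive group were -0.158 points. With moderate counted as closed, the closed share differed by 0 points from Late and 0.105 points from the constitutive group.

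The best GATA6 motif lay at most 25 bp from the summit in 38.8% and at most 100 bp in 85.1% of members. Within 50 kb of a member were 13 developmental transcription factor genes (10.2%), 12 signalling genes (14%), 6 PrE genes (15.8%), 3 pluripotency genes (9.09%) and 6 Hox genes (15.4%), against 8.67% of all protein-coding genes. Within 200 kb of a member were 40 developmental transcription factor genes (31.5%), 31 signalling genes (36%), 12 PrE genes (31.6%), 9 pluripotency genes (27.3%) and 9 Hox genes (23.1%), against 26.7% of all protein-coding genes. The columns used give no depth for single libraries, so no limit from depth was computed.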
